A study of Mus musculus with 10 samples.

Results

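The WNT pathway genes described here are 55 mouse genes chosen by name: 15 ligands, 15 receptors and co-receptors, 10 secreted antagonists, 9 target and feedback genes and 6 genes of the R-spondin system. They are 55 of the 46517 genes in the count tables, and each had a read in at least 1 library. The libraries came from allografts of mouse MPNST (malignant peripheral nerve sheath tumour), a sarcoma related to Schwann cells. The 5 allograft models are lettered A to E, and each gave 1 library of GFP+ cells, which express the CGD transgene, and 1 library of GFP- cells, which do not. All 10 libraries share the allograft setting, the collagenase digestion and a flow cytometry gate against wild-type and dead cells. The sources used here do not give the tumour alleles, the promoter of the transgene, the meaning of CGD, the host strain or the age of the animals. Nor do they say whether a model stands for 1 animal or pooled animals, so p-values apply to these tumours only. For GFP+ against GFP- cells they measure the spread of the pair differences between these tumours. For differences between the tumours they rest on the scatter between the 2 libraries of a tumour.

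WNT proteins are lipid-modified secreted ligands. In the β-catenin branch a WNT binds a Frizzled receptor together with LRP5 or LRP6, β-catenin escapes degradation, and factors of the TCF and LEF family switch on target genes, among them Axin2, Notum, Sp5, Lef1 and Nkd1, several of which feed back on the pathway. Other WNT signals, such as those of WNT5A through ROR and RYK receptors, act without β-catenin. R-spondins and their LGR receptors protect Frizzled receptors from the ubiquitin ligases ZNRF3 and RNF43. In peripheral nerve the pathway takes part in Schwann cell development and myelination.

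The promoters of Sp5, Axin2 and Wnt9b are shown because these genes set model C apart from the other tumours, as described further on. Notum and Wnt10a, also highest in both libraries of C, had no promoter sequence in the set that was read. Each line gives the strand of the gene, 5′ to 3′, from RefSeq on GRCm38.p6, the assembly also called mm10, with 250 bases before the annotated start and 50 after it. Capitals mark the core letters recognised by TCF and LEF factors, CTTTGAT or CTTTGTT, or on the other strand ATCAAAG or AACAAAG.
Sp5 chr2:70474673-70474972 (+): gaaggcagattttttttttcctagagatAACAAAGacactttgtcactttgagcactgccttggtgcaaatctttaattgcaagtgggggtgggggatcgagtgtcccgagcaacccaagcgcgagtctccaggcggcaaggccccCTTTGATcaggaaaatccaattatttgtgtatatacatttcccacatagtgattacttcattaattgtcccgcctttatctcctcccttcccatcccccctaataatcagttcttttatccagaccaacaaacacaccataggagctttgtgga
Axin2 chr11:108920099-108920398 (+): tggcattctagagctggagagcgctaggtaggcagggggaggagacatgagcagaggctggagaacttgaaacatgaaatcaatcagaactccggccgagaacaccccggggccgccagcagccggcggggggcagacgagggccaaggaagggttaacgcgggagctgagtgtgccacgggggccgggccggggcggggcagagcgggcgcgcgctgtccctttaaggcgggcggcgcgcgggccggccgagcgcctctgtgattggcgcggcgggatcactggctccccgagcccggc
Wnt9b chr11:103749772-103750071 (-): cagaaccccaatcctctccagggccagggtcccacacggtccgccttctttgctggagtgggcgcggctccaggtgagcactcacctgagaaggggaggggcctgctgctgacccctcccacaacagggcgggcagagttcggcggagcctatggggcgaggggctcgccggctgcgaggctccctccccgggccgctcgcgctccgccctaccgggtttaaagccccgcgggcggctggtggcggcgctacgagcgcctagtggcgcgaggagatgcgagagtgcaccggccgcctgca
The Sp5 window held CTTTGAT starting 104 bases before the start site and AACAAAG starting 222 bases before it. Axin2 and Wnt9b held neither letter run in these windows. Among the RefSeq promoter windows 37 members had 45 windows, and 6 of these windows (13.3%) held a match on either strand, beside 9.33% of all 32851 windows. CTTTGAT or its reverse was in 3.73% and CTTTGTT or its reverse in 5.85% of all windows, and a window can hold both. The other members with a match among the 45 windows were Dkk1, Fzd7, Wnt11, Wnt3 and Wnt5b. A match is a description of the letters and not of binding.

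The libraries held 15978673 to 22082207 reads in genes. Levels are given as CPM, the reads of a gene scaled to the library's total in genes, for 1 gene across libraries, and as TPM, which also divide by exon length, where genes are compared with each other. Fibroblast markers summed to 18890 to 34870 CPM in GFP+ and 19710 to 39850 CPM in GFP- libraries, while Ptprc, the pan-leukocyte marker, stayed at or below 0.453 CPM and Pecam1, of endothelial cells, at or below 1.31 CPM. The 10 endothelial markers summed to 5.41 to 27.7 CPM in GFP+ and 4.84 to 32.9 CPM in GFP- libraries, and the 10 immune markers to 8.64 to 25.4 and 7.82 to 24.3 CPM. No immune or endothelial marker was at 0 in all libraries. Hba-a2, Hbb-bt and Alas2 of red cells and Plin1 and Lep of adipocytes were at 0 in all 10 libraries. The 10 Schwann lineage markers summed to 64.9 to 398.6 CPM in GFP+ and 23.7 to 128.2 CPM in GFP- libraries, higher in GFP+ in 5 of 5 pairs.

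Secreted antagonists made up the most abundant role, receptors came next and ligands were lower. Summed over the genes of a role, antagonists reached 746 to 1680 TPM per library, receptors 534 to 1090 TPM, ligands 137 to 484 TPM, target and feedback genes 89.5 to 228 TPM and the R-spondin system 22.4 to 85.9 TPM. The antagonist sum was above the ligand sum in 10 of 10 libraries. The members with the highest mean TPM over 10 libraries were Dkk2 (374.9 ± 174.5, SD), Dkk3 (289.1 ± 221.3), Notum (202.8 ± 349.5), Fzd1 (159.2 ± 106.2), Ryk (158.1 ± 16.3), Fzd2 (111.9 ± 30.5), Wnt5a (104.0 ± 40.2) and Sfrp1 (92.5 ± 93.3). The SD of Notum was larger than its mean, whereas Ryk varied little. At the other end, Wnt2b, Wnt3, Wnt7a, Wnt9b, Fzd10, Sfrp5, Dkk1, Rnf43 and Lgr6 were too low in too many libraries for the filter on low counts, so 46 of the 55 members were tested. Wnt3, Wnt7a, Sfrp5 and Dkk1 did not exceed 0.274 CPM in any library.

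**Figure D1:**
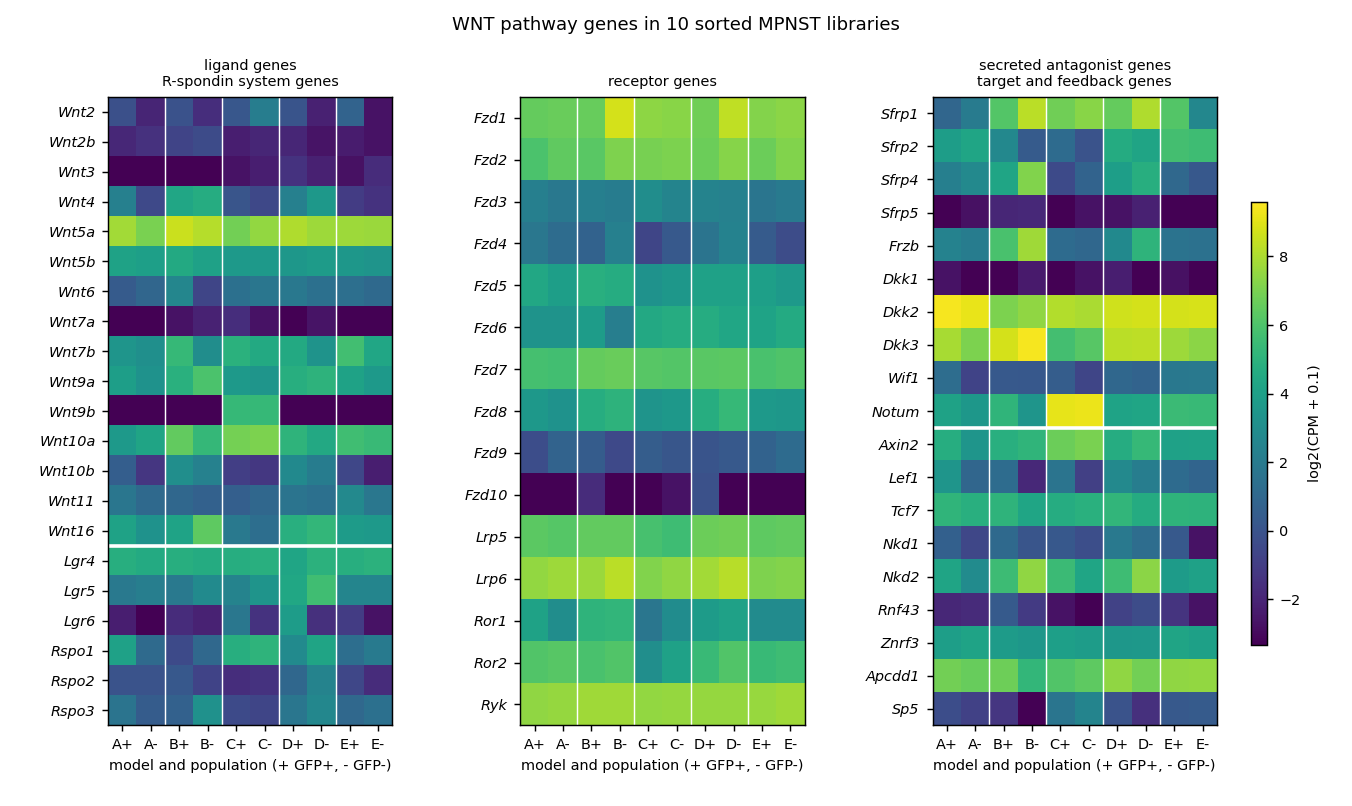
Level of all 55 WNT pathway genes in the 10 libraries, with genes in rows by role, libraries in columns (model letter, + for GFP+ and - for GFP-), and colour for log2(CPM + 0.1). Ryk is even across the columns, Notum is brightest in both libraries of model C (564 and 595 CPM), and Wnt9b is at the bottom of the scale outside model C.

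The first comparison sets cells with the transgene beside cells without it within each tumour. No WNT pathway gene passed the test, and 22 tested members had higher and 24 lower values in GFP+ cells. The values farthest above GFP- cells relative to their spread were those of Wnt7b and Lef1, and the values farthest below were those of Fzd2, Lgr5 and Lrp6. With edgeR's quasi-likelihood test, the tumour model as a block and Benjamini-Hochberg adjustment over 13986 genes, 0 of 46 members and 0 genes in all (0.0%) had an adjusted p under 0.05. Without adjustment, 9 of 46 members (19.6%) had p under 0.05, 4 higher and 5 lower in GFP+ cells, beside 8.99% of all genes. DESeq2 called 3 of 46 members (Wnt7b, Fzd2 and Lef1), beside 1.42% of the 13714 genes to which it gave an adjusted p, and limma voom called 0 members. Of the tested members 8 (17.4%) had the same direction in 5 of 5 pairs on the TMM scale, beside 9.77% of all genes: Wnt7b, Wnt10b, Lef1 and Nkd1 were higher in GFP+ cells and Fzd2, Lrp6, Ror2 and Ryk lower. The median log2 difference was -0.03 over the tested members and -0.0028 over all genes. In sorted bulk cells, fewer cells that express a gene and less of its RNA per cell cannot be told apart.

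By role the signs of the fitted differences were uneven, beside 6898 positive and 7088 negative among all 13986 tested genes. Of tested ligands, 9 of 11 had a positive sign, with a median of 0.24 on the log2 scale. The count ran from 7 of 11 to 10 of 11 over the alternatives that tested all of them: Wnt4 and Wnt5a turned negative in limma voom, Wnt4 without the model block, and Wnt9a turned positive without scaling factors. Of tested receptors, 10 of 14 had a negative sign (median -0.13; 10 to 11 over the alternatives), as did 5 of 8 antagonists (median -0.05; 3 to 5, the lowest without model B). All 5 tested genes of the R-spondin system had a negative sign (median -0.25; 3 to 5, the lowest without model D, and 4 in DESeq2, where Rspo2 turned positive), among which Lgr6 is not counted. Of target and feedback genes, 6 of 8 had a positive sign (median 0.32; 5 to 8, with Sp5 negative in limma voom and without the block). These are counts of signs of values of which none passed edgeR's test.

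**Figure D2:**
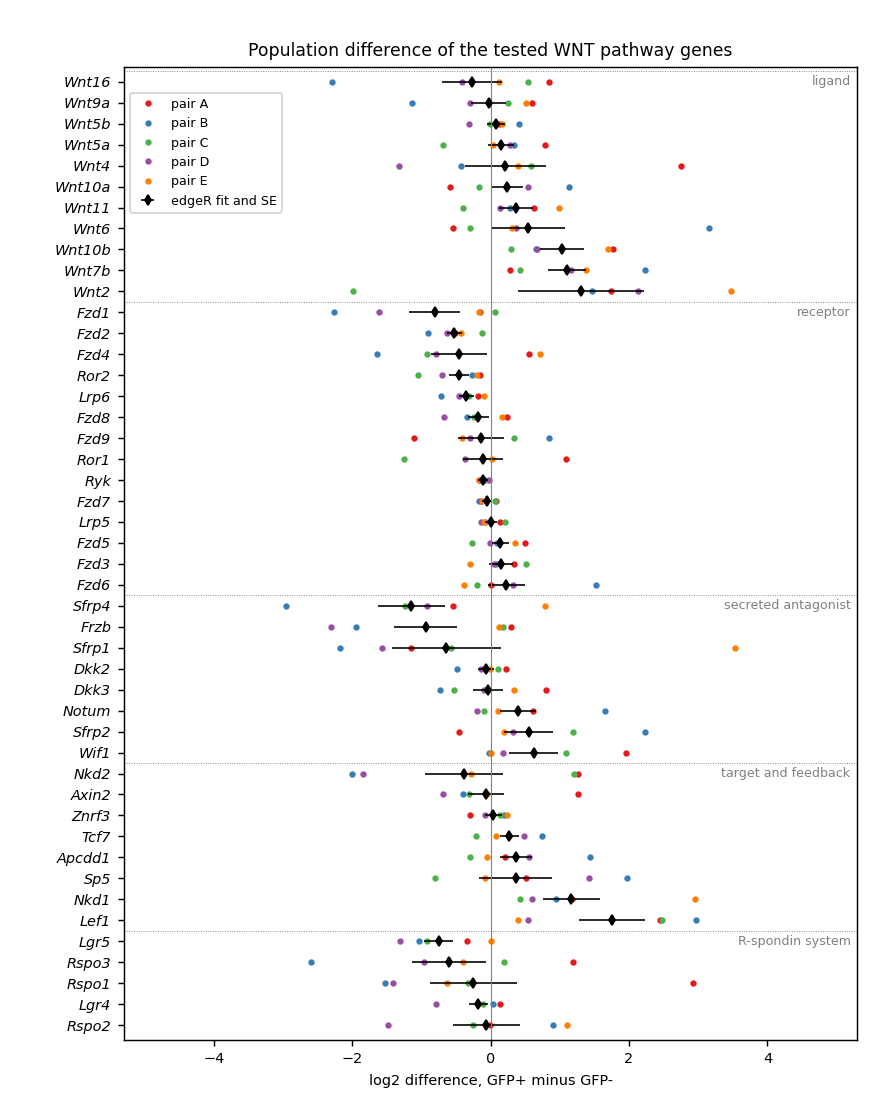
GFP+ minus GFP- difference of the 46 tested WNT pathway genes on the log2 scale (horizontal axis), by role, with 1 coloured point per tumour pair and a black diamond with a bar for the edgeR estimate and its standard error. The 5 points of Wnt7b, Wnt10b, Lef1 and Nkd1 lie right of 0 and those of Fzd2, Lrp6, Ror2 and Ryk left of 0, while Sfrp1 runs from -2.17 in pair B to 3.54 in pair E.

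The second comparison asks whether the 5 tumours differ in these genes by more than the 2 populations of a tumour scatter. The tumours differed in Notum, Dkk2, Lgr5, Ror2 and further members, and by role the antagonists had the widest median range of model means. By edgeR's quasi-likelihood F test on the model terms, 30 of 46 members (65.2%) had a Benjamini-Hochberg adjusted p under 0.05, beside 54.7% of all genes. Without model C, 17 of 46 members (37.0%) and 28.6% of all genes were called. DESeq2's likelihood ratio test called 37 of 46 (80.4%), beside 60.0% of all genes, with Wnt5a, Wnt7b, Fzd4, Wif1, Lef1, Nkd1 and Rspo3 added. The members called by edgeR were 7 of 11 ligands, 9 of 14 receptors, 7 of 8 antagonists, 4 of 8 target and feedback genes and 3 of 5 genes of the R-spondin system. The range of the 5 model means had a median of 2.12 log2 units over the members and 0.94 over all genes, with 5.24 for the antagonists and 1.06 for the receptors. The mean size of the 5 pair differences had a median of 0.56 log2 units over the members and 0.26 over all genes. Both libraries of a model come from 1 source, so this test compares these tumours and not models as such.

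**Figure D3:**
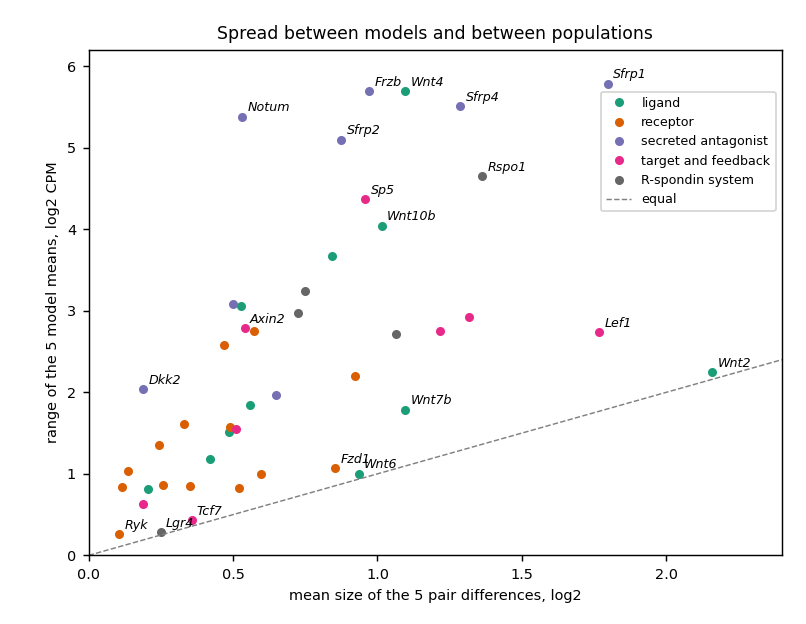
For each tested WNT pathway gene, the range of the 5 model means of log2 CPM (vertical axis) against the mean size of its 5 GFP+ minus GFP- pair differences (horizontal axis, log2), coloured by role, with a dashed line where both are equal. Sfrp1, Frzb, Wnt4, Sfrp4, Notum and Sfrp2 lie at the top with ranges of 5.10 to 5.79, and Ryk lies at the bottom left with a range of 0.26.

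Over the 46 tested members, 8 of 10 libraries had the other library of their own model as the nearest by distance in log2 CPM. The exceptions were the GFP- library of A, nearest to the GFP- library of E, and the GFP+ library of B, nearest to the GFP+ library of D. The 2 libraries of C were the closest pair, at a distance of 4.94, and lay at 9.85 or more from any other library. In 4 of 46 members (8.7%), beside 3.25% of all genes, the 5 models were fully separate, with no library of a model lying inside the range of another: Fzd7, Lrp5, Frzb and Dkk2.

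Among the ligands, Wnt5a had the largest share of the length-scaled signal in models A, B, D and E, and Wnt10a in C. Wnt5a stood at 224, 379.6, 114, 265 and 207 CPM in the GFP+ libraries of models A, B, C, D and E and at 128, 287, 181, 211 and 204 CPM in the GFP- libraries in the same order. Wnt5a, a ligand best known for signals without β-catenin, was highest in both libraries of B, and its model difference passed in DESeq2 but not in edgeR (adjusted p = 0.00391 and 0.0626). Wnt5a made up 34.4% to 52.9% of ligand TPM in models A, B, D and E and 16.2% to 22.4% in C. Wnt10a stood at 12.6, 88.8, 120.0, 33.9 and 50 CPM in GFP+ cells of A to E and at 18.5, 38.5, 133, 22.4 and 43.4 CPM in GFP- cells. Wnt10a, a ligand of the β-catenin branch (chr1:74791516-74804179), was highest in both libraries of C, at 53.9% and 52.2% of ligand TPM, and lowest in A. Its model difference had an edgeR adjusted p of 0.00345, and 0.0322 without C. Wnt6, its neighbour at chr1:74771892-74785322, lay between 0.543 and 5.91 CPM and did not follow that order, with both its highest and its lowest library in B.

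Wnt9b had reads in 1 tumour. This ligand, known from kidney and facial development, had 732 reads in the GFP+ and 726 in the GFP- library of C (39.8 and 40.0 CPM), and 0 reads in the other 8 libraries. A count of 0 allows up to 3 reads, 0.136 to 0.188 CPM at these depths, so Wnt9b was at least 212-fold higher in either C library than in any other. Wnt3, which lies beside it (Wnt9b chr11:103727364-103749821 on the minus strand, Wnt3 chr11:103774150-103817957 on the plus strand), had 0.0543 and 0.11 CPM in C and no more than 0.274 CPM elsewhere. Wnt9b was named after its values were seen, and the bound covers counting error only.

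Wnt7b measured 10.6, 39.6, 30.7, 23.2 and 51.5 CPM in the GFP+ and 8.59, 7.97, 22.6, 9.89 and 19.9 CPM in the GFP- libraries, A to E. Wnt7b (chr15:85535437-85582473), a ligand of the β-catenin branch in lung and brain, was higher in GFP+ cells in 5 of 5 pairs, though the populations overlapped across tumours. Its log2 difference was 1.10 (SE 0.28; edgeR adjusted p = 0.379; DESeq2 adjusted p = 0.00928), and an exact sign-flip test over 5 pairs gave 0.0625, the smallest it can give. Wnt10b stood at 1.33, 8.2, 0.434, 6.96 and 0.579 CPM in GFP+ cells of A to E and at 0.308, 4.94, 0.33, 4.19 and 0.108 CPM in GFP- cells. Wnt10b differed by 1.03 (SE 0.32; edgeR adjusted p = 0.437), higher in 5 of 5 pairs, on 2 to 154 reads per library. B and D stood above the other tumours in both populations, and the model difference passed (edgeR adjusted p = 0.0014). Wnt4 measured 4.83, 20.1, 0.978, 4.83 and 0.386 CPM in the GFP+ and 0.617, 25.7, 0.605, 11.8 and 0.271 CPM in the GFP- libraries, A to E. Wnt4, a ligand of kidney and gonad development, was highest in both libraries of B, followed by GFP- cells of D, and lay below 1 CPM in C and E (model difference, edgeR adjusted p = 0.00592). Its population difference was 0.21 (SE 0.58) and turned to -0.23 in limma voom.

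Other ligands differed between tumours or were scarce. Wnt9a (9.66 to 61.5 CPM) and Wnt16 (2.42 to 85.3 CPM), both highest in the GFP- library of B, differed between models (edgeR adjusted p = 0.0138 and 0.0183), as did Wnt5b (10.3 to 23.2 CPM; 0.0436) and Wnt11 (1.41 to 6.71 CPM; 0.034). Wnt6 did not pass (adjusted p = 0.779). Wnt2 had 1 to 79 reads per library, and its pair differences ran from -1.99 in C to 3.47 in E, where the GFP- library held 1 read.

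Among the receptors, Ryk, Fzd1 and Fzd2 were the most abundant per length. Ryk stood at 173, 215, 182, 189 and 193 CPM in GFP+ cells of A to E and at 191, 217, 190.4, 185 and 219.8 CPM in GFP- cells. Ryk, an atypical receptor with a tyrosine kinase fold, was even across all libraries, with a range of model means of 0.26 log2 units. On the TMM scale it was lower in GFP+ cells in 5 of 5 pairs, with pair differences of -0.17 to -0.02 log2 units, whereas the CPM of D, scaled by library total alone, had the opposite order (fitted difference -0.11, SE 0.07, edgeR adjusted p = 0.69). Fzd2 measured 61.3, 77.9, 123, 104 and 103 CPM in the GFP+ and 86.2, 139, 132, 155 and 141 CPM in the GFP- libraries, A to E. Fzd2 (chr11:102604396-102608058), a Frizzled receptor that WNT5A also uses, had the smallest p of all members, with a log2 difference of -0.52 (SE 0.11). Fzd2 was lower in GFP+ cells in 5 of 5 pairs, with edgeR adjusted p = 0.332 and DESeq2 adjusted p = 0.0166, although GFP+ cells of C (123 CPM) stood above GFP- cells of A (86.2 CPM).

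Fzd1 stood at 93.4, 95.2, 168, 113 and 146 CPM in GFP+ cells of A to E and at 102, 436, 158, 333 and 165 CPM in GFP- cells. Fzd1, a close relative of Fzd2 and Fzd7, was highest in the GFP- libraries of B and D, with pair differences of -2.26 and -1.62 on the log2 scale there and between -0.16 and 0.07 in A, C and E. Its fitted difference was -0.81 (SE 0.36; edgeR adjusted p = 0.568). Lrp6 measured 185, 199, 143, 227 and 136 CPM in the GFP+ and 206, 312, 175, 299.5 and 146 CPM in the GFP- libraries, A to E. Lrp6, the co-receptor that passes the signal to AXIN, was lower in GFP+ cells in 5 of 5 pairs, most in B and D, with a log2 difference of -0.35 (SE 0.10; edgeR adjusted p = 0.417). Its partner Lrp5, at 48.0 to 112 CPM, had a difference of 0.0046 (SE 0.08) and separated all 5 models, D highest and C lowest (model difference, edgeR adjusted p = 0.00475).

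Ror2 stood at 69, 59.4, 8.26, 42.9 and 42 CPM in GFP+ cells of A to E and at 75, 68.1, 16.8, 67 and 48.6 CPM in GFP- cells. Ror2, a receptor tyrosine kinase that binds WNT5A, was lower in GFP+ cells in 5 of 5 pairs, with a log2 difference of -0.45 (SE 0.14; edgeR adjusted p = 0.439). Both libraries of C lay below the other 8, and the model difference passed (edgeR adjusted p = 0.00166). Ror1, its paralog, was highest in B (34.2 and 35.7 CPM) and had its lowest library in C (3.26 CPM) (model difference, edgeR adjusted p = 0.0112). Fzd7 (52.1 to 99.6 CPM), Fzd8 (9.61 to 39.9 CPM), Fzd5 (9.45 to 28.2 CPM) and Fzd6 (4.57 to 25.6 CPM) also differed between models at edgeR adjusted p of 0.006, 0.00273, 0.0111 and 0.0436. Fzd8 was highest in B and D in both populations, and Fzd6 had its lowest library in B and its highest in D. Fzd3, Fzd4 and Fzd9 stayed at or below 8.09 CPM and did not pass either edgeR test, though DESeq2 called Fzd4 between models (adjusted p = 0.00929, edgeR 0.0501).

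The antagonists held the members with the widest spread between tumours. Dkk2 measured 680.1, 131, 272, 407 and 443 CPM in the GFP+ and 574, 175, 249, 432 and 448 CPM in the GFP- libraries, A to E. Dkk2, which binds LRP5 and LRP6, separated all 5 models in the order A, E, D, C, B, with no overlap of neighbours (model difference, edgeR adjusted p = 0.00152). Its population difference was -0.06 (SE 0.12). Dkk3 stood at 238, 429.8, 52.6, 306 and 205 CPM in GFP+ cells of A to E and at 133, 678, 74.8, 314 and 164 CPM in GFP- cells. Dkk3, a divergent family member whose part in WNT signalling is unclear, was highest in B and lowest in C (edgeR adjusted p = 0.00363). Dkk1 had 7 reads in all 10 libraries together.

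Sfrp1 measured 1.83, 71.6, 109, 92.7 and 71.6 CPM in the GFP+ and 4.11, 308, 159, 265 and 6.13 CPM in the GFP- libraries, A to E. Sfrp1, a soluble Frizzled-like protein that binds WNT ligands, was near the bottom in A and in GFP- cells of E and between 71.6 and 308 CPM elsewhere. GFP+ cells were lower in A, B, C and D and higher in E, and the fitted difference was -0.64 with an SE of 0.79 (edgeR adjusted p = 0.859). Sfrp4 stood at 4.72, 19.4, 0.652, 15.1 and 1.93 CPM in GFP+ cells of A to E and at 6.79, 144, 1.65, 27.7 and 1.08 CPM in GFP- cells. Sfrp4 was highest in B and D, most of all in GFP- cells of B, and lower in GFP+ cells in 4 of 5 pairs (log2 difference -1.15, SE 0.48, edgeR adjusted p = 0.549; model difference 0.00297). Frzb measured 5.28, 59.1, 2.23, 6.86 and 2.94 CPM in the GFP+ and 4.21, 218, 1.93, 33.2 and 2.71 CPM in the GFP- libraries, A to E. Frzb, also called sFRP3, was highest in both libraries of B, followed by D, and its model difference had an edgeR adjusted p of 0.00191. Its pair differences were -1.95 in B and -2.31 in D and between 0.13 and 0.29 in A, C and E.

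Sfrp2 stood at 14.5, 6.39, 2.17, 24.4 and 53.3 CPM in GFP+ cells of A to E and at 19.5, 1.22, 0.881, 18.8 and 47.2 CPM in GFP- cells. Sfrp2 had another order, with E highest and C lowest (model difference, edgeR adjusted p = 0.00261). The GFP- library of B, the highest of all for Sfrp1, Sfrp4 and Frzb, had 1.22 CPM of Sfrp2. Wif1, a secreted binder of WNT ligands, lay between 0.514 and 3.58 CPM (model difference, edgeR adjusted p = 0.055, DESeq2 0.0369).

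Notum set model C apart. Notum measured 17.5, 35.1, 564, 17.8 and 44.5 CPM in the GFP+ and 11.2, 10.6, 595, 19.6 and 41.9 CPM in the GFP- libraries, A to E. NOTUM (gene at chr11:120653788-120661175) is an esterase that removes the lipid from WNT ligands and is itself a target of β-catenin. The lower C library stood 12.7-fold above the highest other library, and the model difference had the smallest adjusted p of all members (edgeR adjusted p = 0.000453, 0.0626 without C). Notum made up 66.8% and 65.9% of the antagonist TPM in C and 1.04% to 8.17% elsewhere. Its population difference was 0.39 (SE 0.26; edgeR adjusted p = 0.696), higher in GFP+ cells in A, B and E and lower in C and D.

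Axin2 and Sp5, target genes that also feed back on the pathway, had the same high tumour. Axin2 stood at 26.1, 27.9, 103, 25.8 and 16.7 CPM in GFP+ cells of A to E and at 10.6, 34.9, 126, 40 and 17.5 CPM in GFP- cells. Axin2 (chr11:108920349-108950783), a scaffold of the complex that degrades β-catenin, was highest in both libraries of C, the lower of which stood 2.57-fold above the highest other library (model difference, edgeR adjusted p = 0.00447, 0.229 without C). Its population difference was -0.06 (SE 0.26), positive in pair A and negative in the other 4. Sp5 measured 0.722, 0.32, 3.2, 0.877 and 1.11 CPM in the GFP+ and 0.463, 0, 5.56, 0.25 and 1.19 CPM in the GFP- libraries, A to E. Sp5 (chr2:70474923-70477729), a zinc finger factor whose promoter is printed above, was 2.69-fold higher in the lower C library than in the highest other, on 59 and 101 reads there and 0 to 23 elsewhere. The model difference of Sp5 had an edgeR adjusted p of 0.0127, and 0.127 without C.

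**Figure D4:**
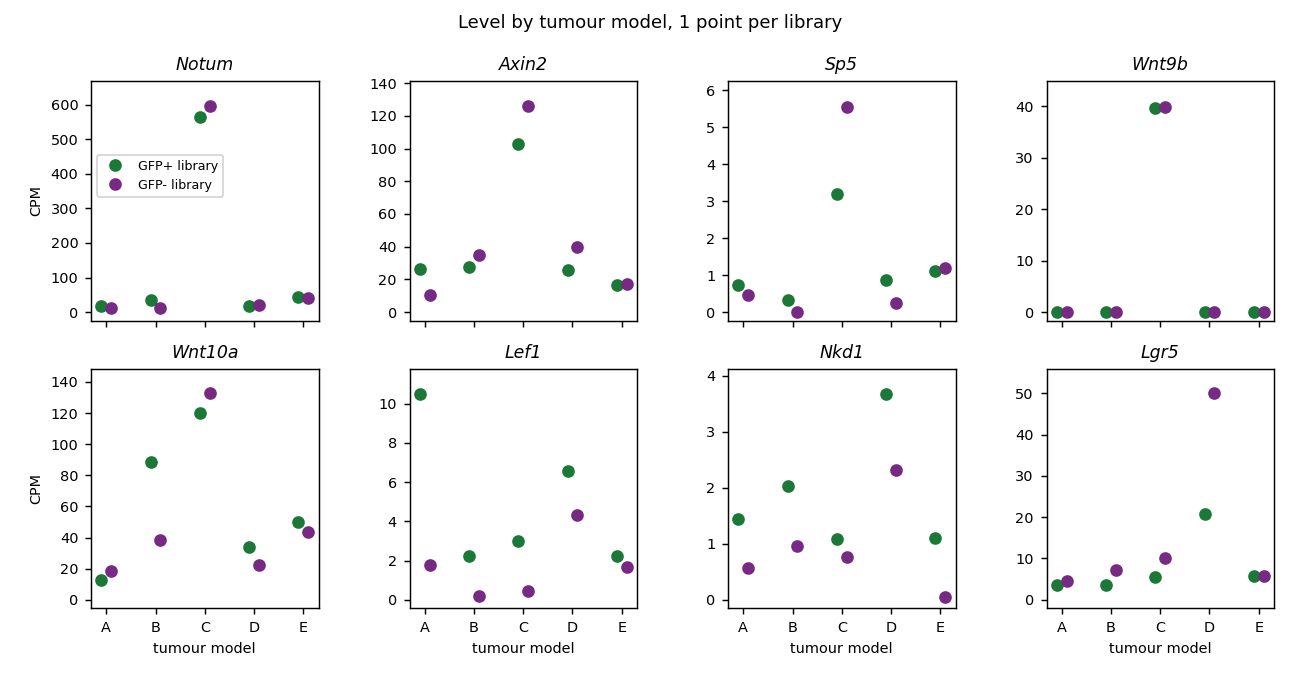
CPM of 8 WNT pathway genes in each library (vertical axis, linear) by tumour model (horizontal axis), GFP+ in green and GFP- in purple. Both libraries of C lie above all others for Notum, Axin2, Sp5, Wnt9b and Wnt10a, whereas Lef1 is highest in GFP+ cells of A (10.5 CPM), Nkd1 in GFP+ cells of D (3.67 CPM) and Lgr5 in GFP- cells of D (50 CPM).

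Notum, Axin2 and Sp5 were the 3 of 46 tested members (6.52%) with both C libraries at least 2-fold above every other library, beside 1.65% of all genes. Wnt16 and Ror2 were the 2 members (4.35%) with both C libraries at least 2-fold below every other, beside 2.35% of all genes. The other target and feedback genes did not share the order of the first group. These groupings were made after the values were seen and carry no test. Pericyte and smooth muscle markers also had their lowest sums in C, at 151 and 151.7 CPM beside 256.9 to 1047 CPM elsewhere. Pdgfrb made up most of these sums in C (86.3 CPM in GFP+ and 110.7 in GFP- cells). Kcnj8 of the same list went the other way, highest in C (6.735 and 4.678 CPM, 3.505 or less elsewhere). Abcc9 (5.214 and 3.853 CPM in C) lay within the range of the other libraries. Epithelial markers summed to 234.6 and 263.9 CPM, close above the highest of 4.89 to 219.3 CPM elsewhere. Krt8 made up most of that sum in C (188 CPM in GFP+ and 229 in GFP- cells). Krt18, at 38.3 and 28.6 CPM in C, was higher in both libraries of A (66.9 and 93.8 CPM). Of the fibroblast markers, Col1a2 was lowest in C (556 and 619 CPM, 3569 or more elsewhere) and Dcn highest (10150 and 9345 CPM, 2622 or less elsewhere). The part of these cell type markers in the model C values was not tested.

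Lef1 stood at 10.5, 2.24, 2.99, 6.58 and 2.22 CPM in GFP+ cells of A to E and at 1.8, 0.181, 0.44, 4.32 and 1.68 CPM in GFP- cells. Lef1 (chr3:131110471-131224356), which encodes a DNA-binding partner of β-catenin, was higher in GFP+ cells in 5 of 5 pairs, with a log2 difference of 1.75 (SE 0.48; edgeR adjusted p = 0.393; DESeq2 adjusted p = 0.0171). GFP+ cells held 42 to 189 reads and GFP- cells 4 to 69, so the GFP- values of B and C rest on 4 and 8 reads. In pairs D and E the difference was 0.54 and 0.39, in A, B and C 2.45 to 2.97. Tcf7 measured 35, 33.6, 25.9, 36 and 34.1 CPM in the GFP+ and 28.4, 19.2, 29.5, 24.7 and 32.6 CPM in the GFP- libraries, A to E. Tcf7, the related factor TCF1, was even between tumours (range of model means 0.43 log2 units) and higher in GFP+ cells in 4 of 5 pairs (0.27, SE 0.14, edgeR adjusted p = 0.618).

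Nkd1 stood at 1.45, 2.02, 1.09, 3.67 and 1.11 CPM in GFP+ cells of A to E and at 0.566, 0.951, 0.77, 2.32 and 0.0542 CPM in GFP- cells. Nkd1, which binds Dishevelled and dampens the signal, was higher in GFP+ cells in 5 of 5 pairs, by 1.16 (SE 0.41; edgeR adjusted p = 0.478), on 1 to 67 reads per library. Nkd2 measured 18.6, 46.1, 44.4, 47.6 and 13.5 CPM in the GFP+ and 7.56, 176, 19, 165 and 16.6 CPM in the GFP- libraries, A to E. Nkd2, its paralog, was lower in GFP+ cells of B and D and higher in those of A and C. Apcdd1, a membrane inhibitor of the pathway, lay between 37.3 and 182 CPM (model difference, edgeR adjusted p = 0.0423). Znrf3, the ligase that removes Frizzled receptors, was even at 11.4 to 18.9 CPM, and Rnf43 did not exceed 1.17 CPM.

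**Figure D5:**
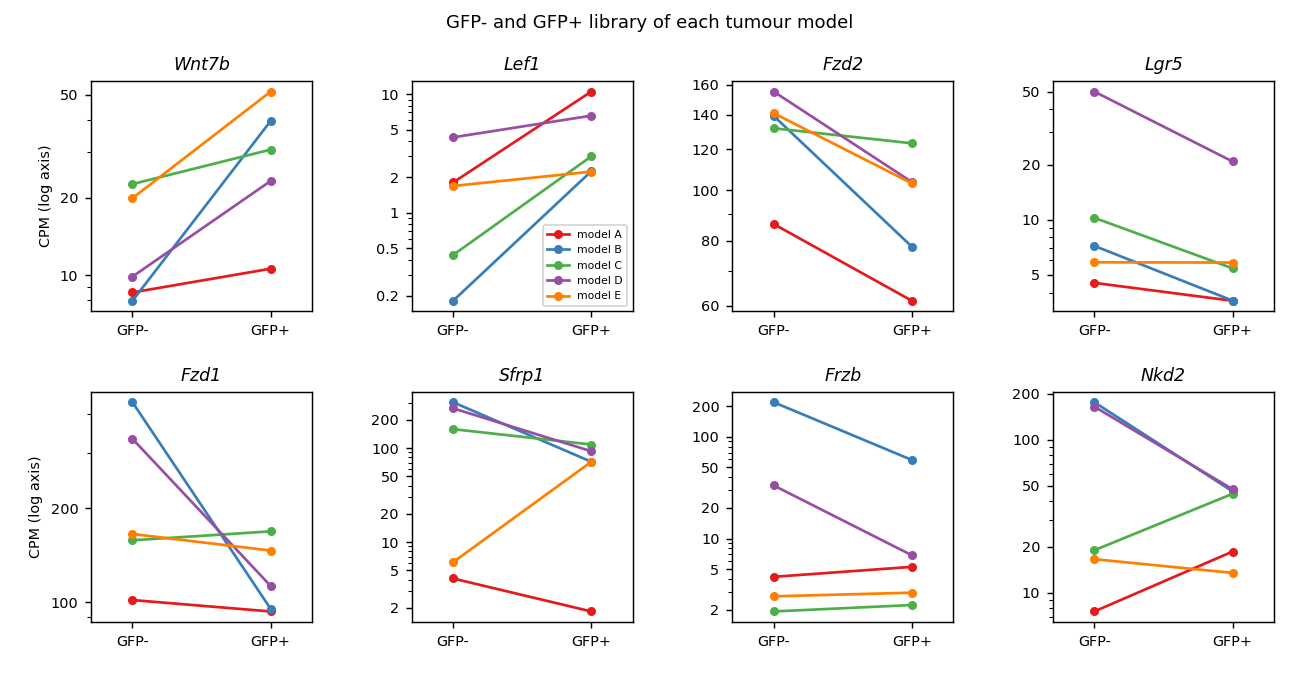
CPM of 8 WNT pathway genes (vertical axis, log scale) in the GFP- and GFP+ library of each tumour model, joined by a line per model. All 5 lines rise for Wnt7b and Lef1 and fall for Fzd2, while those of Fzd1, Sfrp1, Frzb and Nkd2 fall in B and D and rise in at least 1 of A, C and E.

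In the R-spondin system the receptors Lgr5 and Lgr6 had opposite signs. Lgr5 stood at 3.61, 3.62, 5.43, 20.8 and 5.84 CPM in GFP+ cells of A to E and at 4.52, 7.2, 10.2, 50 and 5.86 CPM in GFP- cells. Lgr5 (chr10:115450311-115587780), an R-spondin receptor known as a stem cell marker and β-catenin target, was lower in GFP+ cells in A, B, C and D and level in E, with a log2 difference of -0.75 (SE 0.21; edgeR adjusted p = 0.393). Both libraries of D stood above all others (model difference, edgeR adjusted p = 0.00154, 0.177 without D). Lgr6 measured 0.111, 0.213, 3.37, 14 and 0.386 CPM in the GFP+ and 0, 0.136, 0.275, 0.25 and 0.0542 CPM in the GFP- libraries, A to E. Lgr6, also an R-spondin receptor, was higher in GFP+ cells in 5 of 5 pairs, with 62 against 5 reads in C and 256 against 4 in D, and 8 reads or fewer in each library of A, B and E.

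Lgr6 was below the filter on low counts. In the fit without a filter it was the 1 member among 47 of 25762 genes called (0.182%), with a log2 difference of 3.82 (SE 0.62; edgeR adjusted p = 0.0343). Without C, D or E the adjusted p was 0.0807, 0.325 and 0.0864, and without A or B 0.0275 and 0.000788. Schwann lineage markers summed to 226.6 against 128.2 CPM in C and 398.6 against 84.6 CPM in D, GFP+ against GFP-. In A, B and E they summed to 64.9 against 41.5, 119.9 against 23.7 and 127.2 against 91.7 CPM. Lgr6 had 4 against 3 reads in B. Gap43 made up most of the marker sum in GFP- cells of C (89.8 CPM). The part of these markers in the Lgr6 difference was not tested.

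Rspo1 stood at 17, 0.639, 27.8, 7.24 and 2.46 CPM in GFP+ cells of A to E and at 2.11, 1.95, 34.2, 18.8 and 3.9 CPM in GFP- cells. Rspo1, a ligand of the LGR receptors, was highest in C, followed by GFP- cells of D and GFP+ cells of A, and its signs differed between pairs (model difference, edgeR adjusted p = 0.0291). Lgr4 was even at 19.1 to 31.8 CPM, Rspo2 reached 5.38 CPM in GFP- cells of D, and Rspo3 ran from 0.55 to 9.15 CPM.

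Pairs B and D shared a set of lower values in GFP+ cells. Fzd1, Sfrp1, Frzb, Nkd2, Lgr5 and Rspo1, 6 of 46 tested members (13%), were at least 2-fold lower in GFP+ cells of both B and D, beside 1.92% of all genes. Wnt2, Wnt7b and Sp5 (6.52%) were at least 2-fold higher in both, beside 1.79% of all genes. The values of Wnt2 rest on 16 against 5 reads in B and 17 against 2 in D. Those of Sp5 rest on 6 against 0 and 16 against 4 reads. The set was chosen after the values were seen, and in A, C and E its members had smaller differences or other signs, as with Sfrp1 at 3.54 in E and Rspo1 at 2.92 in A. Pericyte and smooth muscle markers (10 of 10 detected) summed to 405 against 1047 CPM in B and 552.9 against 760.7 CPM in D, GFP+ against GFP-, and 9 and 8 of the 10 were lower in GFP+ cells. Pdgfrb made up most of these sums in GFP- cells (780 CPM in B and 444 in D), and Acta2 (181 against 126 CPM) and Cspg4 (48.4 against 40.0 CPM) were higher in GFP+ cells of D. Fibroblast markers summed to 29000 against 36100 and 31290 against 39850 CPM, with 8 of 10 lower in each pair and Dcn higher in both (140.0 against 68.6 CPM in B, 1462 against 1046 in D). Schwann lineage markers summed to 119.9 against 23.7 CPM in B and 398.6 against 84.6 CPM in D, with 8 and 9 of 10 higher in GFP+ cells. Epithelial markers summed to 88.7 against 4.89 CPM in B, mostly Krt18 (77.2 against 3.53 CPM), and to 23.7 against 16.4 CPM in D, and skeletal muscle markers to 1.06 against 1.81 and 3.95 against 15.6 CPM. The part of these cell types in these differences was not tested.

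The wider pathway was read from a list of 86 further genes, of which 73 were tested. With edgeR's quasi-likelihood test 0 of them had a Benjamini-Hochberg adjusted p under 0.05 for the populations, and 13 (17.8%) had an unadjusted p under 0.05, 8 higher and 5 lower in GFP+ cells, beside 8.99% of all genes. DESeq2 called 1 of them, Tle2, beside 1.42% of all genes. Ctnnb1, which encodes β-catenin itself, lay at 498.6 to 741.7 CPM (log2 difference -0.07, SE 0.09). Wls, which carries WNT ligands to the cell surface, differed by -0.09 (SE 0.13), and Porcn, which adds their lipid, by -0.46 (SE 0.17; edgeR adjusted p = 0.479). The smallest p values were those of Tle2, a co-repressor of TCF factors, at -0.56 (SE 0.13; edgeR adjusted p = 0.359), the reported target genes Nrcam at 0.79 (SE 0.18) and Plaur at 0.37 (SE 0.09), the polarity cadherin Celsr1 at 1.43 (SE 0.34) and the Frizzled co-factor Tspan12 at 0.84 (SE 0.23), the last 4 with edgeR adjusted p of 0.363 to 0.393. Between the tumours 48 of the 73 genes (65.8%) differed by edgeR's test, beside the 54.7% of all genes. Of the ligands outside the 55, Wnt3a had no read in any library, and Wnt1, Wnt8a and Wnt8b had 6, 4 and 1 reads in all.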

How the data were processed

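Per the labels, sorted GFP+ and GFP- cells of 5 MPNST allograft models gave 10 RNA libraries, and total RNA was sequenced. The authors deposited raw read counts per gene, not normalized, made with STAR 2.4.2.8 on mm10 per the submitters' processing notes. The sources used here do not give the annotation or the strand setting. The second stranded column was used, since it held 96.9% to 97.1% of stranded gene reads. Summary lines (21.3% to 24.3% of reads) were left out. Reads that overlap exons on the opposite strand are then counted apart, and 10 members share exon bases with a gene on the opposite strand. Symbols and coordinates came from GENCODE vM21 (46005 of 46517 identifiers matched).

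The members, lists and alternatives were chosen with earlier results of these data known. The fit was edgeR 4.0.16 in R 4.3.3 (quasi-likelihood, TMM, filterByExpr, 13986 genes, tumour model as a block), two-sided, with Benjamini-Hochberg adjustment at 0.05, after the paired comparison in the series' design text. The model test used the model terms of that fit. The letters pair the samples, since both libraries with 1 letter are from 1 tumour model. Departures from the population mean correlated at 0.628 to 0.867 in the 5 pairs, and 10 of 10 libraries correlated best with their partner. Pair differences were taken on log2 CPM (prior count 2), and the exact sign-flip test over 5 pairs cannot go below 0.0625. TPM divided raw counts by exon length and scaled them to the library's total, without TMM factors. The scripts were tested on simulated counts.

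Values in every library are given for the 10 members with the smallest p, the 8 with the highest TPM, the 8 with the widest range of model means, and Axin2, Lef1, Tcf7, Nkd1, Sp5 and Notum. Wnt9b, Wnt10a, Nkd2 and Lgr6 were added after their values were seen. Depth was 15978673 to 22082207 reads in genes, and counting intervals cover counting error only. Alternatives were RLE factors, library totals, no filter, a filter of 1 CPM in 5 libraries, unstranded counts, DESeq2 1.42.0, limma voom (3.58.1), no replicate block, a prior count of 0.5 and leaving out each model. Protein sequences and reads of the transgene were not analysed here.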

Additional observations from a re-analysis of the deposited data

Results flagged for a closer look

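Within a population, the highest or lowest of 5 libraries was marked where its gap to the next value exceeded 0.71 of the whole range. This was done for the 46 tested members, Wnt9b and Lgr6. A set could be marked only where a library reached 1 CPM, but sets below that were counted too. Of the 96 sets 20 (20.8%) were marked. Chance marks about 1 in 20 sets of normally distributed values, but these are linear CPM, both sets of a gene share their tumours, and over all tested genes 9.49% of 27972 sets were marked, beside 17 of 92 (18.5%) for the tested members alone. No test was made of that difference. Of these, 11 were in model C, 5 in D and 4 in B, and 0 in A or E.

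In model C the values apart were those of Notum at 564 CPM in GFP+ (others 17.5 to 44.5) and 595 in GFP- cells (others 10.6 to 41.9), and of Axin2 at 103 (16.7 to 27.9) and 126 (10.6 to 40.0). Sp5 stood at 3.20 in GFP+ (0.32 to 1.11) and 5.56 in GFP- cells (0 to 1.19), and Wnt9b at 39.8 and 40.0 CPM, with the others at 0. In GFP- cells of C, Wnt10a was at 133 (18.5 to 43.4) and Wnt2 at 4.35 CPM (0.0542 to 0.226). Tcf7 was lowest in GFP+ cells of C, at 25.9 CPM beside 33.6 to 36.0.

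In model D, Lgr5 was apart at 20.8 CPM in GFP+ (3.61 to 5.84) and 50 in GFP- cells (4.52 to 10.2), Lgr6 at 14 in GFP+ cells (0.111 to 3.37), and Rspo2 at 5.38 in GFP- cells (0.217 to 0.874). Lgr4 was lowest in GFP+ cells of D, at 19.1 CPM beside 26.4 to 27.2. In model B, Frzb was apart at 59.1 CPM in GFP+ (2.23 to 6.86) and 218 in GFP- cells (1.93 to 33.2), Sfrp4 at 144 in GFP- cells (1.08 to 27.7), and Wnt4 at 20.1 in GFP+ cells (0.386 to 4.83).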

How the results depend on the processing

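For the populations, 0 genes and 0 members were called under 6 alternatives and without any 1 model, whereas DESeq2 called 195 genes and 3 members and the fit without a filter 47 genes and 1 member (Lgr6). Without the replicate block 0 genes were called and 190 had an unadjusted p under 0.05, beside 1257 with it, and the block changed no member's call. For the tumours, leaving out 1 model left 4038 to 7545 genes and 17 to 30 members called, with the lowest of both without C. Of 696 single-gene log2 differences over 54 genes, 35 changed sign and 4 passed the threshold anew. Signs changed without the block for Dkk2 (0.0144), Lrp5 (-0.0238), Notum (-0.0221), Sp5 (-0.28) and Wnt4 (-0.39). They changed in limma voom for Sp5 (-0.15), Wnt4 (-0.23) and Wnt5a (-0.0243), without a filter for Lrp5 (-0.0116), with library totals for Wnt9a (0.0045) and in DESeq2 for Rspo2 (0.0554). Leaving out 1 model in turn, the difference crossed 0 for Axin2 (-0.37 to 0.10), Dkk2 (-0.14 to 0.0448), Dkk3 (-0.26 to 0.14), Fzd6 (-0.069 to 0.38), Fzd9 (-0.39 to 0.11), Lrp5 (-0.0479 to 0.0434), Nkd2 (-0.82 to 0.0742), Ror1 (-0.42 to 0.14), Rspo1 (-0.94 to 0.12), Rspo2 (-0.38 to 0.55), Wnt16 (-0.59 to 0.25), Wnt4 (-0.45 to 0.81), Wnt5a (-0.013 to 0.35), Wnt5b (-0.00911 to 0.17), Wnt6 (-0.0283 to 0.81), Wnt9a (-0.19 to 0.26) and Znrf3 (-0.027 to 0.12). The cause was not tested. Values that rest on a few reads, such as those of Lef1, Nkd1 and Sp5, are limited by depth.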
